A study of Caenorhabditis elegans with 2 samples.

Results

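Of 2103 reproducible ChIP-seq peaks from L2 larvae of *Caenorhabditis elegans*, 250 had a summit in the promoters of at least 2 protein-coding genes at once, on a chromosome other than X. A promoter was taken as 1000 bp upstream to 200 bp downstream of any annotated transcript start. These shared peaks were 15.7% of the 1589 autosomal peaks (exact 95% binomial interval 14 to 17.6) and 29.2% of the 856 autosomal peaks in any promoter (26.2 to 32.4). Among them 217 lay in the promoters of 2 genes on opposite strands, here called divergent. Another 18 lay in the promoters of 2 genes on the same strand, and 15 in those of 3 genes on both strands, here called mixed. The other autosomal peaks comprised 606 in the promoter of 1 gene, called single promoter peaks below, and 733 in none.

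The chromatin came from whole animals of strain OP355, a mixed-sex population that carries unc-119(tm4063) on III and the integrated transgene wgIs355, immunoprecipitated through a tagged transcription factor. The labels disagree on this factor. They name mdl-1 as the target in the antibody and source fields, and eGFP-ZK337.2 in the description. Which of these was tagged is not settled here. Both libraries, 2 biological replicates with fragments of 150 to 350 bp, belong to the same group, so no condition was compared and n is 2 for every value over replicates. The control library named in the labels was not used here. Read depth is unknown. The signal of a peak is the authors' own value, on a scale that is not stated. The list holds the peaks the authors kept by irreproducible discovery rate (IDR) on the pooled replicates. Neither peaks nor genes are replicates of each other. The tests below describe these lists, and intervals cover counting error only.

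Mad proteins such as MDL-1 are basic helix-loop-helix leucine zipper factors that pair with Max-like partners, bind the E-box CACGTG and are known as repressors that oppose Myc. In a compact genome such as that of the worm, many neighbouring genes start back to back, so that a single stretch of DNA can serve as the promoter of both. Worm genes on the same strand can also lie close behind each other in operons, where the upstream promoter drives a joint transcript that is resolved by trans-splicing.

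The sequences below show what lay under the summits of shared peaks of high signal, with and without some of the sites tested further on. They are the 101 bases around the summit at 10 peaks, as plus-strand sequence of WBcel235 (ce11) from the RefSeq genome. Capitals mark the E-box CACGTG, the repeat GAGAGA, the 8-base element CTGCGTCT and the 6-base words GCTCCA and ACCGTA, on either strand.
K01G5.10/tasp-1, chrIII:10759206-10759306: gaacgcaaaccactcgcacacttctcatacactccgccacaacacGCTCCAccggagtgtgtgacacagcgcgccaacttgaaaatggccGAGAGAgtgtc
rpl-15/K11H12.8, chrIV:654875-654975: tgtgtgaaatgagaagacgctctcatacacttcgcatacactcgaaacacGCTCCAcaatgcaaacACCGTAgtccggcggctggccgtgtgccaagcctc
ifet-1/rps-1, chrIII:4475610-4475710: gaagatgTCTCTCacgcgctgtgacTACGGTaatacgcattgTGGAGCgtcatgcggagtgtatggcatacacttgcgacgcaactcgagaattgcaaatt
R107.5/cls-2, chrIII:9054028-9054128: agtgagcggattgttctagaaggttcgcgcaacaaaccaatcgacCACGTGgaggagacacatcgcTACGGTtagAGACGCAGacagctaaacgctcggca
mif-4/ipla-6, chrIV:6336825-6336925: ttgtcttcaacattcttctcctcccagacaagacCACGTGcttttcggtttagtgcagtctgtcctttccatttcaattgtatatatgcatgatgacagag
imp-2/enpl-1, chrIV:11119191-11119291: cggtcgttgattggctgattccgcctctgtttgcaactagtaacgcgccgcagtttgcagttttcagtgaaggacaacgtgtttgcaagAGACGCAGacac
F32D8.13/sec-61.G, chrV:10897326-10897426: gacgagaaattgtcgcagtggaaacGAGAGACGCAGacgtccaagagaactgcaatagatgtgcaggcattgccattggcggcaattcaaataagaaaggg
iff-2/F54C9.14, chrII:8561401-8561501: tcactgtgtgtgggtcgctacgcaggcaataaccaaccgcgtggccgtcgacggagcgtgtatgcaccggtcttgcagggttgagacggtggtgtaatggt
nhl-2/tag-340, chrIII:4899878-4899978: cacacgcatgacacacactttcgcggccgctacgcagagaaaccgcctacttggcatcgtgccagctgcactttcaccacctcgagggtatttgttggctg
rab-7/W03C9.5/mex-1, chrII:11967673-11967773: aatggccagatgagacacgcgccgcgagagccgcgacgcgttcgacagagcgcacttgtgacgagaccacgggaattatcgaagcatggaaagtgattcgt
GCTCCA was present in the tasp-1, rpl-15 and ifet-1/rps-1 windows, and ACCGTA in the rpl-15, ifet-1/rps-1 and R107.5/cls-2 windows. R107.5/cls-2 and mif-4/ipla-6 held an E-box. The iff-2, nhl-2 and rab-7 windows, of which that of iff-2 belongs to the peak second in signal, held none of the capitalised sequences. Other words tested further on were not capitalised. Of these, AAGTGC was in the nhl-2 and rab-7 windows, AGCGCA in that of rab-7 and GCGCCA in that of tasp-1.

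The shared peak of highest signal lay between tasp-1, which encodes a threonine aspartase, and K01G5.10. Its signal was 615 in the pooled list, 223 in replicate 1 and 391 in replicate 2, and its summit was 51 bp upstream of the tasp-1 start and 734 bp upstream of the K01G5.10 start. The summit next in signal lay 84 bp upstream of iff-2, which encodes translation initiation factor eIF5A, and 851 bp upstream of F54C9.14, with 421 pooled, 167 in replicate 1 and 258 in replicate 2. Both peaks were much nearer to one start than to the other. The summit at mif-4 and ipla-6, a macrophage migration inhibitory factor gene and a phospholipase gene, was instead distant from each, at 881 and 778 bp upstream, with a signal of 367 (151 in replicate 1 and 219 in replicate 2). At nhl-2, which encodes a TRIM-NHL protein known as a microRNA pathway cofactor, and tag-340, the signal was 353 (123 and 230). At the ribosomal protein gene rpl-15 and K11H12.8 it was 325 (135 and 186), with the summit 349 and 465 bp upstream of the starts.

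The remaining divergent peaks among the 12 of highest signal had pooled signals from 191 to 287. They paired pdi-3, a protein disulfide isomerase gene, with the ubiquilin gene ubql-1 (287 pooled, 112 in replicate 1, 173 in replicate 2), and enpl-1, which encodes the endoplasmic reticulum chaperone endoplasmin, with the intramembrane protease gene imp-2 (266, 102 and 162). The enpl-1 start was 57 bp from its summit and the imp-2 start 354 bp. The nucleoside diphosphate kinase gene ndk-1 shared a peak of 234 (91.8 and 144) with F25H2.6. The CLASP microtubule regulator gene cls-2 shared one of 232 (84.4 and 153) with R107.5. Replicate 2 was the higher of the replicates at each of these peaks.

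The other divergent peaks of this group lay at a paracaspase and a homeobox gene and at ribosomal protein genes of the small subunit. At malt-1, the paracaspase gene, and ceh-38, a ONECUT homeobox gene, the signal was 215 pooled, 80.4 in replicate 1 and 137 in replicate 2, and the summit lay 25 bp inside ceh-38. The peak at ifet-1, which encodes a repressor of translation that binds eIF4E, and rps-1 had 205 (76.2 and 132). At ska-3, a kinetochore gene, and rps-12 it had 191 (76.9 and 110), with the summit 123 bp from the ska-3 start and 170 bp from that of rps-12. Each of the 12 was also in the separate list of the 2103 strongest peaks of either replicate.

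The summits of divergent peaks mostly lay between the starts of their genes. By the transcript starts nearest the summit, all 217 pairs were head to head. Between these starts lay 15 to 1771 bp, with a median of 578 bp (quartiles 375 and 873). Over their full annotated length, the 2 genes of some pairs overlap. The summit fell between the starts in 200 cases (92.2%, exact 95% binomial interval 87.8 to 95.4), and 68% of these (61.1 to 74.4) were in the middle 50% of the interval. Where the starts are over 1000 bp apart, the definition of the promoters allows a summit only between them, and at the widest pairs only near the middle. Its part in these shares was not tested. The nearer start was a median of 171 bp away and the farther one 390 bp, and 79 summits (36.4%) were within 300 bp of both. The plus-strand gene was the nearer one at 115 peaks, the minus-strand gene at 101, and at 1 peak the distances were equal. By annotation at the summit base, 184 of the 217 (84.8%) were outside protein-coding genes, 16 were in a UTR, 13 in an intron and 4 in coding sequence.

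**Figure D1:**
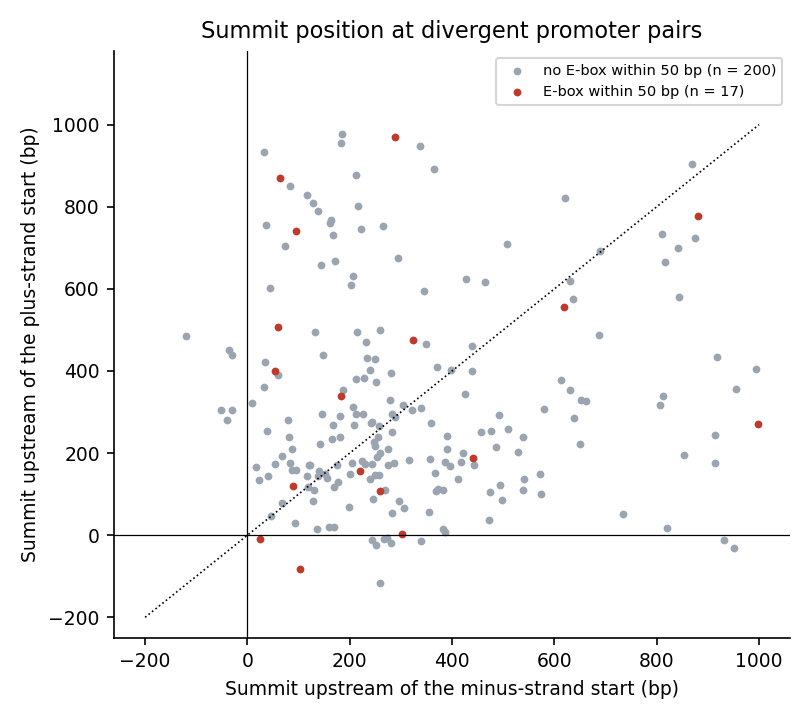
Distance of the summit upstream of the minus-strand start (x axis, bp) and of the plus-strand start (y axis, bp) for each of the 217 divergent peaks, with the 17 that hold an E-box within 50 bp of the summit in red and negative values for summits downstream of a start. Most points lie above 0 on both axes, on either side of the dotted line of equal distance, and the red points are spread among the grey ones.

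Peaks were most frequent where divergent starts were 250 to 1000 bp apart. Of 2382 neighbouring head-to-head gene pairs on autosomes with starts within 2000 bp, 221 (9.28%, exact interval 8.14 to 10.5) had an IDR summit in both promoters. The share was 7.20% (26 of 361 pairs) for spacings up to 250 bp and 14.8% (76 of 515) from 250 to 500 bp. It was 11.7% and 11.0% in the next pair of bins of 250 bp, then 6%, 5.26% and 2.01%, and 0.781% (1 of 128) from 1750 to 2000 bp. By the definition of the promoters, the stretch that lies in both lengthens with the spacing up to 800 bp and shortens beyond it. Its part in these shares was not tested. In the relaxed pooled list, which also holds weaker peaks and background, 40.2% of the pairs had a summit, and the bin from 250 to 500 bp was again the highest, at 56.9%.

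**Figure D2:**
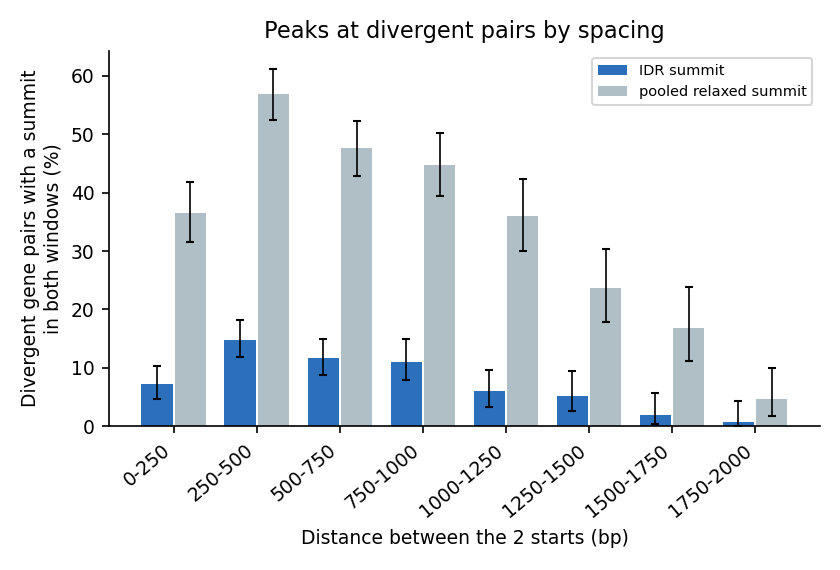
Percentage of divergent gene pairs with a summit in both promoter windows (y axis) by the distance between the starts in bins of 250 bp (x axis), for IDR peaks in blue and relaxed pooled peaks in grey, with exact 95% binomial intervals. Both series are highest from 250 to 500 bp, at 14.8% and 56.9%, and lowest from 1750 to 2000 bp.

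Per base, shared promoter sequence held more summits than sequence in the promoter of 1 gene. Shared sequence made up 2.52 Mb of the autosomes, 11.3% of all promoter window bases, and held 99.0 summits per Mb (exact Poisson interval 87.1 to 112). The 19.8 Mb in the window of 1 gene held 30.6 per Mb (28.2 to 33.1). Sequence shared by genes on opposite strands had 105 per Mb (91.9 to 119), and sequence shared on the same strand 57.4 (34.0 to 90.7), the latter from 18 peaks. Shared summits also lay nearer to a start, with a median of 170.5 bp against 271.5 bp at single promoter peaks. Within 200 bp of a start were 60% against 37.6%. At shared peaks the nearest start was taken over several genes and at single promoter peaks over 1, which by itself shortens the distance. The farthest start of shared peaks was a median of 406.5 bp away. Since position is what defines the peaks, these values are a description and were not tested.

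The 18 same-strand peaks had signals from 33.2 to 139, and most of their gene pairs overlapped each other in the annotation. In 12 cases the genes overlapped and in 6 they followed each other with a gap of 47 to 178 bp (median 114). In several overlapping pairs 1 gene lay wholly inside the other. Among the 10 pairs of highest signal these were C53H9.4 in egl-30, Y71G12A.5 in tub-2 and F53E2.2 in unc-60. They also included hmg-11 in clec-140, K11D12.14 in pqn-51 and T06E8.8 in F57A8.1. Some inner genes are very short, such as Y71G12A.5 at chrI:1874110-1874139. Whether such pairs have separate promoters was not tested. The summit was nearer the upstream start in 17 of 18, and the distances were equal at unc-60 and F53E2.2. A summit upstream of both starts is always nearer the upstream one, so this count is largely set by position. The highest was at sec-61.G, which encodes the gamma subunit of the protein translocon, and F32D8.13, a tandem pair 114 bp apart. Its signal was 139 pooled, 43.0 in replicate 1 and 91.1 in replicate 2, with the summit 233 bp upstream of sec-61.G and 833 bp upstream of F32D8.13. At egl-30, the Gq alpha subunit gene, and C53H9.4, an overlapping pair with starts 119 bp apart, it was 131 (50.3 and 81.2). The tandem pair rps-28, a ribosomal protein gene, and Y41D4B.4 had 105 (52.0 and 53.3).

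Next among same-strand peaks were tub-2, a tubby-like gene, with Y71G12A.5 at 96.4 (21.3 in replicate 1 and 76.8 in replicate 2), and the cofilin gene unc-60 with F53E2.2 at 77.5 (39.0 and 38.9). The unc-60 and F53E2.2 genes have the same annotated start, 481 bp from the summit. At ddp-1, a mitochondrial import chaperone gene, and ttc-7, 47 bp apart, the signal was 69.0, and here replicate 1 was the higher, at 45.4 against 23.0. Of the 6 peaks described, tub-2 thus had the largest ratio of replicate 2 to replicate 1, and ddp-1 the smallest. The other 4 of the 10 same-strand peaks of highest signal had 50.1 to 59.4 and lay at clec-140 with hmg-11, C33A12.3 with C33A12.4, pqn-51 with K11D12.14, and F57A8.1 with T06E8.8. Of the 18 pairs, the 6 tandem ones have separate genes one behind the other, as in an operon. The pair rpl-23 and swp-1, named after its values were seen, is counted as overlapping but shares a single base, with starts 602 bp apart. None was matched to a list of operons.

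The 15 mixed peaks had 3 genes each, and their signals ran from 33.7 to 215. The highest lay 792 bp upstream of rab-7, the late endosome GTPase gene, 179 bp upstream of W03C9.5 and 914 bp upstream of mex-1, which encodes a CCCH zinc finger protein of the early embryo. Its signal was 215 pooled, 73.4 in replicate 1 and 140 in replicate 2. The peak at rab-18, kbp-4, a kinetochore gene, and par-2, a cell polarity gene, had 133 (53.2 and 80.0). The next 3 all had a gene of the respiratory chain. They were cox-6B and nduc-2 with Y71H2AM.20 (81.8), ndua-8 with rbc-2 and Y54F10AM.15 (61.7), and atp-2, the ATP synthase beta subunit gene, with C34E10.10 and C34E10.12 (56.5). Y54F10AM.15 lies wholly inside rbc-2, and C34E10.12 inside C34E10.10, each on the same strand.

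No difference between shared and single promoter peaks passed the test in signal or in recovery by both replicates. Their signals ran from 32.7 to 615 with a median of 50.9, and those of single promoter peaks from 32.5 to 456 with a median of 53.5. Above the median of all autosomal peaks were 122 of 250 (48.8%) and 317 of 606 (52.3%; Fisher's exact test, p = 0.367). In the top lists of both replicates were 169 (67.6%) and 428 (70.6%; Fisher's exact p = 0.413). By class these were 144 of 217 divergent, 16 of 18 same-strand and 9 of 15 mixed peaks. All 250 overlapped a relaxed peak in each replicate, with the replicate summits a median of 14 bp (replicate 1) and 8 bp (replicate 2) away.

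Classified afresh in each replicate's own top list, 241 peaks of replicate 1 and 247 of replicate 2 were shared, a mean of 29.1% ± 0.236 (SD, n = 2) of autosomal promoter peaks. Of the 7035 weaker autosomal promoter peaks in the relaxed pooled list, 14.7% (13.9 to 15.6) were shared. Within the IDR list the share did not rise with signal, at 27.2% for the first 500 ranks, 26.8% and 34.6% for the following blocks of 500, and 28.8% for the rest. Across the 250 peaks the replicate signals had a Spearman correlation of 0.599, and across 603 single promoter peaks 0.635. These points share their libraries, and the values are descriptions.

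**Figure D3:**
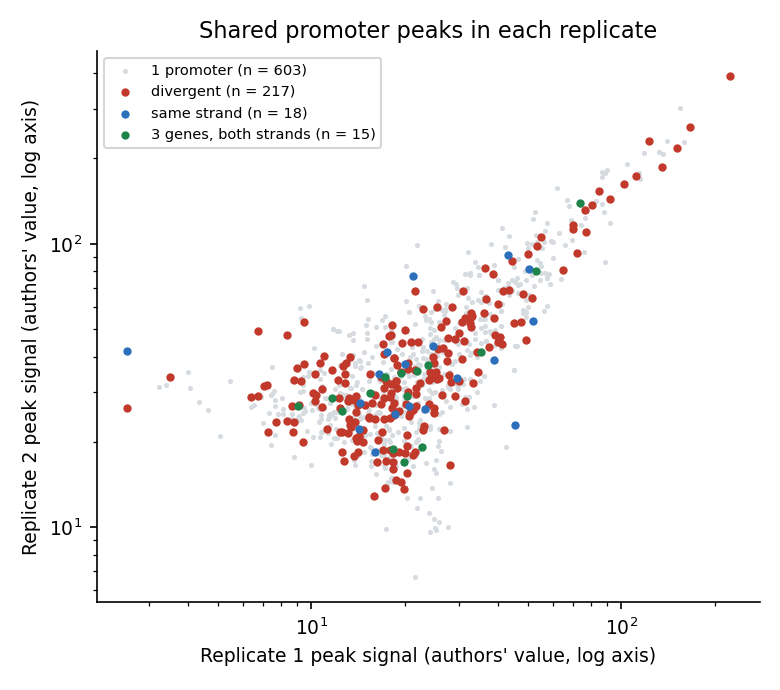
Signal of the overlapping peak in replicate 1 (x axis) and replicate 2 (y axis), the authors' values on log axes, for divergent peaks (red), same-strand peaks (blue), mixed peaks (green) and single promoter peaks (grey). The 3 classes of shared peak lie among the single promoter peaks, and the highest red point is the tasp-1 peak at 223 and 391.

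The E-box was less frequent at shared than at single promoter peaks. CACGTG lay within 50 bp of 20 of 250 shared summits (8%, exact 95% interval 4.95 to 12.1) and of 114 of 606 single promoter summits (18.8%, 15.8 to 22.2; Fisher's exact test, adjusted p = 0.00017 over 7 motifs). It was at 19.1% of the peaks in no promoter. The relaxed E-box, which also admits CATGTG and its reverse complement CACATG, was at 14.4% and 28.5% (adjusted Fisher's exact p = 5.1e-05). Of all 17242 autosomal promoters, in windows of 101 bp centred 250 bp upstream of the start, 1.58% held CACGTG and 4.69% the relaxed form. Genes with a divergent neighbour had CACGTG in 1.53% of these windows and other genes in 1.59%.

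GAGAGA and the GATA site TGATAA were also less frequent at shared peaks of the IDR list, but not beyond the threshold in the list of replicate 2. GAGAGA was at 23.6% of shared and 32.8% of single promoter summits (adjusted Fisher's exact p = 0.0152; 6.21% of all promoters). TGATAA was at 6 of 250 (2.4%) and 55 of 606 (9.08%; adjusted Fisher's exact p = 0.00083; 10.5% of all promoters). Without replicate 1 the differences were -4.86 percentage points for GAGAGA, against -9.24, and -3.18 for TGATAA, against -6.68 (adjusted Fisher's exact p = 0.255 for each). In the 1000 peaks of highest signal neither passed (0.342 and 0.135). The difference did not pass for CTGCGTCT (10.8% and 16%, adjusted Fisher's exact p = 0.0762; 1.01% of all promoters), the GC box GGGCGG (5.2% and 6.77%, 0.516; 2.20%) or TATAAA (4.8% and 4.79%, 1; 13%). Shared summit windows had a median GC content of 48.5% and single ones 47.5%. Flanks 500 bp away had 38.6% and 35.6%, and the windows of all promoters 33.7%. The part of base composition in the motif shares set against all promoters was not tested.

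**Figure D4:**
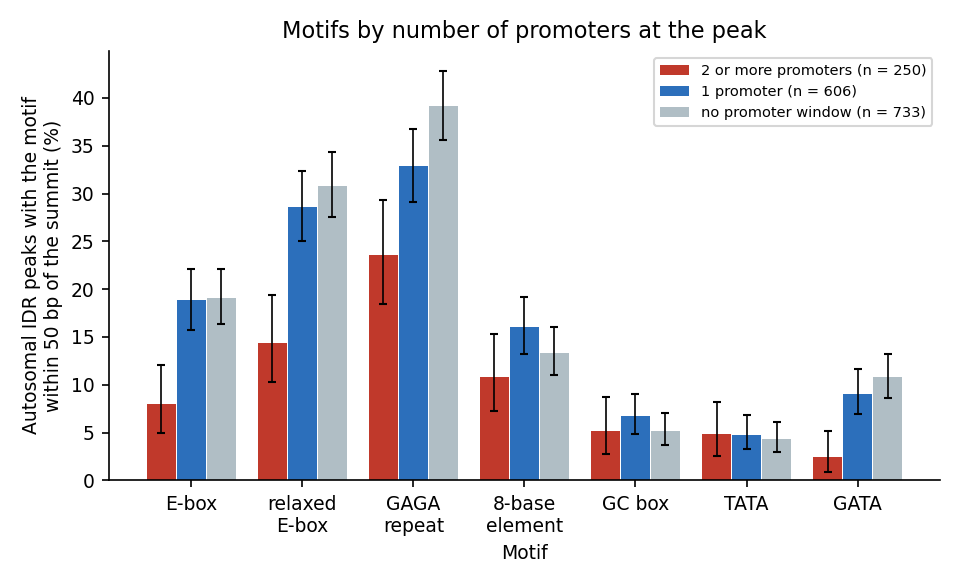
Percentage of autosomal IDR peaks with each motif within 50 bp of the summit (y axis), for shared (red), single promoter (blue) and other (grey) peaks, with exact 95% binomial intervals. The E-box, relaxed E-box, GAGA and GATA bars are lower for shared than for single promoter peaks.

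Within 50 bp, 5 of the 7 motifs were more frequent at shared summits than in the flanks, and the TATA and GATA sequences were less frequent. The E-box was at 8% of shared summits and 2% of flanks, a ratio of 4, where single promoter peaks had a ratio of 9.12. It was under the summit but not in the drawn flank at 20 shared peaks, and the reverse at 3 (exact McNemar test, adjusted p = 0.00085). CTGCGTCT was at 27 summits and none of the drawn flanks (exact McNemar, adjusted p = 5.2e-08), and GAGAGA was at 23.6% against 6.6% (2.8e-08). TATAAA, at 4.8% against 8.4% (exact McNemar, adjusted p = 0.0391), and TGATAA, at 2.4% against 9.4% (0.00608), were less frequent at the summit. The flanks had a lower median GC content (38.6% against 48.5%), and its part in these differences was not tested. Within 25 bp the differences of GGGCGG (0 percentage points, exact McNemar, adjusted p = 1), TATAAA (-1.6, 0.135) and TGATAA (-2.4, 1) did not pass.

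The E-box difference was in the same direction on 5 of 5 autosomes and among the members of high and low signal, but its size varied. It was -3.67 percentage points on I (unadjusted Fisher's exact p = 0.619), -8.91 on II (0.196) and -7.58 on III (0.208). On IV it was -15.9 (0.0141) and on V -18.6 (0.00335). Above the median signal the E-box share was 8.20% of shared and 21.5% of single promoter peaks (unadjusted Fisher's exact p = 0.00078). At or below the median signal it was 7.81% and 15.9% (0.0287), which did not pass after adjustment. Within 200 bp of a start it was 8.67% and 25% (4.3e-05). Over 200 bp from a start it was 7% and 15.1% (0.0328), again not passing after adjustment. Under 45% GC it was 13.5% and 24.2% (0.0528), between 45 and 55% GC 5.80% and 17.4% (0.00081), from 55% GC 5.26% and 9.89% (0.506), and without peaks at ribosomal protein genes 8.60% and 19% (0.00025). Divergent peaks alone had it at 7.83%, with 7.69% for starts up to 500 bp apart and 7.94% for wider pairs. It was at 3 of 18 same-strand peaks (16.7%, adjusted Fisher's exact p = 0.657 against divergent) and at none of 15 mixed ones, numbers too small to separate the classes. With promoters taken from 2000 bp upstream the difference was smaller and did not pass, at -4.43 percentage points against -10.8 (Fisher's exact, adjusted p = 0.101). Neither did it pass among the next 2103 pooled peaks below the IDR list (6.25% and 9.23%).

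The shared peaks with an E-box came from various kinds of genes. The highest were those of mif-4/ipla-6, pdi-3/ubql-1, ndk-1/F25H2.6 and R107.5/cls-2, described above, and the other 16 had signals from 33.0 to 148. The genes named in the rest of this paragraph were chosen after their values were seen, apart from ndub-8. They include the acyl-CoA dehydrogenase gene acdh-9 (103 pooled, 47.3 in replicate 1, 52.8 in replicate 2), the complex I subunit gene ndub-8 with cup-14 (86, 30.6 and 53.2) and tdo-2, which encodes tryptophan dioxygenase (80.7, 29.8 and 48.5). Further down were pdi-1, another protein disulfide isomerase gene (61.7), the Arf exchange factor gene gbf-1 with the mitochondrial protease gene immp-1 (47.6), and the ribosomal protein gene rps-29 with the synaptotagmin gene snt-2 (45.9). Their E-box sites are shown as 30 bases of plus-strand WBcel235 sequence, with CACGTG in capitals, to show that the bases on either side of the core differ.
acdh-9/F28A10.13, chrII:848639-848668: gaaaaccgagagCACGTGgtagaagaaaac
cup-14/ndub-8, chrII:13872715-13872744: tagcacttgtttCACGTGtgcgaatttcta
tdo-2/C28H8.2, chrIII:5920210-5920239: tgacatacgattCACGTGttcacactttca
pdi-1/C14B1.2, chrIII:3701815-3701844: acgggagatgtcCACGTGgacgtcaccgtg
gbf-1/immp-1, chrIII:11774657-11774686: aaaacgacacgtCACGTGcaccgttttctg
snt-2/rps-29, chrIII:793785-793814: gcgactttgacaCACGTGaaacgagtgtga

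Among all 2080 words of 6 bases, counting a word and its reverse complement together, 7 differed between shared and single promoter summits (0.337% of the words, Fisher's exact test with adjustment over all of them), and 6 of these were more frequent at shared peaks. The exception was CACGTG (adjusted Fisher's exact p = 0.0246). Few of the calls held in the replicates taken alone. In the list of replicate 1, 4 words passed, 2 of them among the 7, and in that of replicate 2, 5 passed, 3 of them among the 7. CACGTG (adjusted Fisher's exact p = 0.0803 and 0.107 over all words), AAGTGC and GCGCCA passed in neither. At an unadjusted p under 0.05 there were 227 words. ACCGTA was at 36 shared summits (14.4%, 10.3 to 19.4) and 26 single ones (4.29%, 2.82 to 6.22; adjusted Fisher's exact p = 0.00183). CCGTAC, which overlaps it by 5 bases, was at 8.8% and 1.82% (adjusted Fisher's exact p = 0.00543). GCTCCA was at 14.4% and 4.95% (0.00543).

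The other words were AAGTGC, at 14.8% of shared and 5.94% of single promoter summits (adjusted Fisher's exact p = 0.025), AGCGCA, at 13.2% and 4.95% (0.025), and GCGCCA, at 18.4% and 8.91% (0.0471). Of all promoters, ACCGTA was found in 3.13%, CCGTAC in 1.52%, GCTCCA in 3.43%, AAGTGC in 3.78%, AGCGCA in 1.51% and GCGCCA in 1.82%. In the flanks of the shared peaks ACCGTA was at 2% and GCTCCA at 6.2%. At least 1 of the 6 was at 128 shared summits (51.2%) and at 23.9% of single ones, and 9 of the 20 E-box members were among the 128. These last counts use the words that the test picked and carry no test.

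ACCGTA occurred at 11 of the 29 shared peaks with a ribosomal protein gene, among them rpl-15 and rps-1. Without ribosomal protein peaks it was at 11.3% of shared and 3.69% of single promoter summits. In windows of 45 to 55% GC it was at 18.1% and 5.56%, whereas AGCGCA was at 11.6% and 7.64% there. These words were picked on the same peaks, so their shares in subsets are descriptions and carry no test. The replicates' own lists are not independent of the pooled list either, since the libraries are the same. In the replicates' own top lists ACCGTA passed in replicate 1 (14.1% and 4.91%, adjusted Fisher's exact p = 0.0216) and in replicate 2 (13% and 3.86%, 0.0046), and it was the only word to pass in all 3 lists. GCTCCA passed in replicate 2 (adjusted Fisher's exact p = 0.0434) and not in replicate 1 (0.0634). With the search narrowed to 25 bp on either side only AAGTGC passed (adjusted Fisher's exact p = 0.00357).

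The shared peaks lay in the promoters of 509 genes, 2.95% of all autosomal protein-coding genes, and any autosomal IDR peak in those of 1055 (6.12%). Several lists had higher shares than that background, given here as counts with no test. Among them were the cytosolic ribosomal protein, respiratory chain, chaperone, splicing factor, nuclear pore and translation factor lists. Also above it were trafficking (12.9%, exact interval 7.04 to 21.0) and cell cycle and DNA replication genes (12.3%, 5.47 to 22.8). The same held for proteasome (12.1%, 3.40 to 28.2) and ribosome biogenesis genes (14.3%, 3.05 to 36.3). Of 79 cytosolic ribosomal protein genes, 30 had a shared peak (38%, exact interval 27.3 to 49.6) and 10 a single promoter peak, and 49 of the 79 (62.0%) had a head-to-head neighbour within 2000 bp, against 27.6% of all genes. The highest were rpl-15, rps-1 and rps-12, at 325, 205 and 191. At 26 divergent peaks with 1 ribosomal protein gene, that gene was the nearer one in 10, a count given without a test. Only 1 of the 29 ribosomal protein peaks had an E-box, that of rps-29.

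Respiratory chain genes had a shared peak in 12 of 62 cases (19.4%, 10.4 to 31.4) and a single one in 3, with nduf-2.2 (156), which shares its peak with the dynein light chain gene dlc-1, and atp-1 (86.4) and ndub-8 (86) highest. Heat shock proteins and chaperones had 12 of 61 (19.7%, 10.6 to 31.8) and 3, led by the chaperonin subunit genes cct-7 (92.4), cct-8 (88.5) and cct-1 (88.3). Splicing factors had 9 of 51 (17.6%) and nuclear pore and transport genes 7 of 40 (17.5%). The SR protein genes rsp-2 and rsp-1 share 1 peak of 78.9 between them, and npp-3 was the highest nucleoporin gene, at 60.9. A head-to-head neighbour within 2000 bp was present at 59.7% of respiratory chain and 58.8% of splicing factor genes. For nuclear pore genes this was 62.5% and for translation factor genes 57.9%. It was 66.7% for proteasome, 61.9% for ribosome biogenesis, 50.8% for chaperone, 46.2% for cell cycle and replication and 43.6% for trafficking genes. Each is above the 27.6% of all genes, and the part of such neighbours in the shares was not tested. Translation factors had 6 of 38, among them iff-2 (421), eef-1A.1 (89.1) and eef-2 (71.4). The eef-1A.1 peak is at the same time that of rfc-4, a replication factor C gene and the highest of 8 cell cycle and replication genes out of 65.

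Trafficking genes had a shared peak in 13 of 101 cases, led by rab-7, sec-61.G and rab-18, and proteasome genes in 4 of 33, with rpn-9 (45.7) highest. The intervals of mitochondrial ribosomal protein genes (4 of 70, 5.71%, 1.58 to 14) and aminoacyl-tRNA synthetase genes (2 of 32, 6.25%, 0.766 to 20.8) include the background. Histone genes had 3 of 77, although 83.1% of them have a head-to-head neighbour. Below or near the background were nuclear hormone receptors (3 of 246, nhr-68 at 131), chemoreceptors (4 of 1280), F-box genes (2 of 309), cuticle collagens (1 of 146) and homeobox genes (1 of 61). In the same order, 17.5%, 21.9%, 31.1%, 26.7% and 14.8% of these genes had a head-to-head neighbour, against 27.6% of all genes. The collagen gene, col-38, shares its peak of 52.6 with rpl-5, and the F-box gene fbxa-90 shares its peak with efl-1, an E2F factor gene (rpl-5 and efl-1, and dlc-1 above, were chosen after seeing their values). The ubiquitin pathway had 1 gene of 54 at a shared peak and 7 at a single one. A peak cannot say which of its genes is the target, so each count includes genes that are neighbours only.

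**Figure D5:**
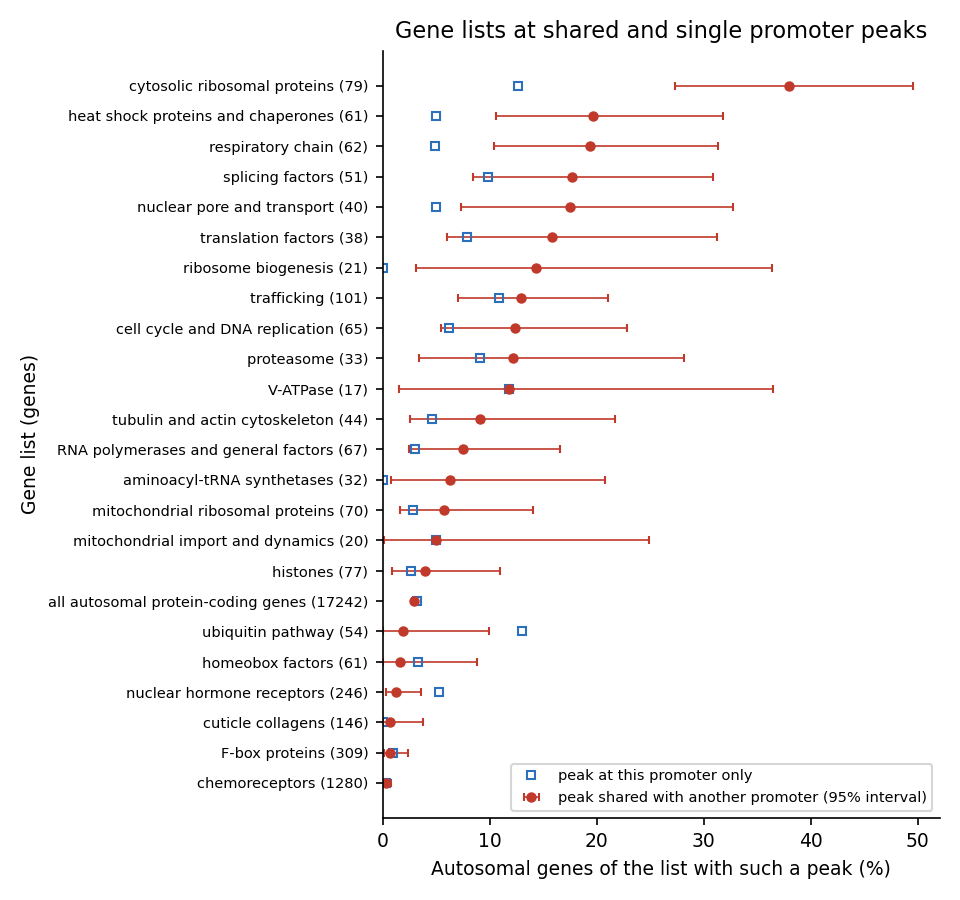
Percentage of autosomal genes of each list (number of genes in brackets) with a peak shared with another promoter (red, exact 95% binomial interval) or with a peak in this promoter only (blue squares). Cytosolic ribosomal protein genes are highest for shared peaks at 38%, where all autosomal genes have 2.95%.

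Whether the genes of a shared peak are of the same kind could be read at few peaks. A gene of the 23 lists was present at 119 of the 250 peaks, and all genes of the peak were on lists at 16. The same counts were not made for single promoter peaks or for all divergent pairs. None of the counts here can therefore be read as high or low. At 3 of these 16 all were on the same list, which are rsp-2/rsp-1 and, named after their values were seen, rsp-5/snr-3 and cyb-1/orc-5. The 250 peaks belonged to 247 distinct sets of genes. A second peak was present in 3 of these sets, T26A8.4/pdtf-1 (181 and 84.3), atx-2/ecps-1 (90.2 and 32.9) and aka-1/ubc-6 (53.3 and 32.9), all named after their values were seen except ubc-6. The aka-1/ubc-6 peaks overlapped the same peak of each replicate, with 18.8 in replicate 1 and 32.8 in replicate 2.

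By chromosome, III stood out in number, with 66 shared and 121 single promoter peaks, 35.3% shared (28.5 to 42.6). It had 160 shared summits per Mb of shared window, and also the highest density of single promoter peaks, at 41.1 per Mb of single window. The other autosomes had 45 to 47 shared peaks and 26.9% to 28.1% shared, with intervals that overlap that of III. The lowest densities were on V, at 70.5 per Mb for shared and 22.6 per Mb for single promoter peaks. The share of window sequence that was shared differed little, from 10.6% on V to 12.3% on III. Few peaks depended on the exact edge of the window, since 9 shared summits were within 50 bp of losing a promoter and 8 single ones within 50 bp of gaining one.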

How the data were processed

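Peaks were measured by ChIP-seq in 2 biological replicates. The authors deposited, per the labels, a relaxed peak list for each replicate (30000 peaks each), one for the pooled replicates (28651 peaks) and an optimal list by irreproducible discovery rate (IDR, 2103 peaks), in builds ce11 and ce10. Only ce11 was analysed here. Caller, aligner, IDR threshold and depth, not given in the sources used here, could each change which peaks are listed. As signal, each peak carries the authors' deposited value of unstated scaling, which served here only for ranks, filters and description inside a list. The deposited −log10 q-value sits at its ceiling for 180 of the members and was not used to rank.

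Promoter windows ran from 1000 bp upstream to 200 bp downstream of each transcript start of 17242 autosomal protein-coding genes (WBcel235, Ensembl release 115). Sequence came from the RefSeq WBcel235 genome. Each replicate's own list was its 2103 peaks of highest signal, and peaks were matched by an overlap of at least 1 bp. For 7 motifs and all 2080 words of 6 bases, both strands within 50 bp of the summit were searched. Fisher's exact test compared groups of peaks, and the exact McNemar test compared summits with windows 500 bp away, for which a seeded draw picked the flank. All tests were two-sided with Benjamini-Hochberg adjustment over the 7 motifs or over the 2080 words and a threshold of 0.05. Binomial intervals are exact Clopper-Pearson at 95%, those of densities exact Poisson.

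The members, the 23 gene lists and the motifs were chosen with earlier results of these data known, and the survey of 6-base words was added after seeing the data. Genes named are those of the 12 divergent, 10 same-strand and 5 mixed peaks of highest signal and up to 3 genes per list by signal, and any other gene is said to be chosen after its values were seen. Alternatives covered the window, peak number, motif window, flank, GC content, distance to the start, and each replicate's list. The scripts were tested on simulated data. The software was scipy 1.17.1 with pandas 2.3.3 and numpy 2.4.6 in Python 3.11.15, and figures were drawn with matplotlib 3.10.9.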

Additional observations from a re-analysis of the deposited data

How the results depend on the processing

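Counts moved with the window and the number of peaks. Promoters of 500 bp upstream to 100 bp downstream gave 161 shared peaks (24.1% of promoter peaks, 8 same-strand), and of 2000 bp upstream 408 (37.1%, 53 same-strand). The 1000 highest-signal peaks held 112 (98 divergent, 9 same-strand), and the peaks in both replicates' lists 144 divergent ones. Without either replicate there were 241 to 247 shared peaks (28.97% to 29.3%), 207 to 214 divergent and 21 to 22 same-strand. The E-box difference between shared and single promoter peaks was then -8.849 to -8.851 percentage points, that between divergent and same-strand peaks -5.69 to -2.28, that in the share above the median signal -5.38 to 0.578, and the number of 6-base words that differed 4 to 5. The E-box difference kept its direction and did not pass Fisher's exact test at 2000 bp upstream (-4.43, adjusted p = 0.101) or, in settings chosen after seeing the data, at GC under 45% (-10.7, 0.123), over 200 bp from a start (-8.08, 0.0766), at or below the median signal (-8.10, 0.067) and in the next 2103 pooled peaks (-2.98, 0.273). At 55% GC or more it was -4.63 (unadjusted Fisher's exact p = 0.506). The cause was not tested. The word survey passed 4 words with divergent peaks alone and 1 within 25 bp. Relaxed peaks lay at 40.2% of divergent pairs. For the other motifs, 145 values under an alternative stayed on their side of the threshold, 26 no longer passed and 3 newly passed, and no called difference was reversed. No paired analysis was possible because both replicates belong to the same group. Read depth is unknown, so what depth limits cannot be given.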
